A study of Mus musculus with 6 samples.

Results

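A set of 10 genes whose products work in germ cells and meiosis, and which are silent in most body cells, was followed in primary mouse embryonic fibroblasts (pMEFs) with and without the histone acetyltransferase HAT1. The genes, Tex15, Sycp1, Sycp2, Sycp3, Stag3, Smc1b, Hormad1, Mael, Dazl and Ddx4, were taken by symbol from a table of 17512 genes, where 8 of them had a row. Hormad1 and Mael had no row, so their RNA was not analysed here. The set was chosen by germline role with earlier results of the same HAT1 KO and HAT1 WT samples known, in which Tex15 stood among the genes higher in HAT1 KO. For that reason the differences of these genes between genotypes are given as descriptions with a standard error, and counts of them past a threshold are printed beside the share of all genes without being read as tests.

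The series measured gene expression by RNA-Seq in 6 pMEF lines on the C57bl6 background, 3 labelled HAT1 WT (lines 36, 47 and 78) and 3 labelled HAT1 KO (lines 33, 41 and 72). Acetyl groups are added by HAT1 to new histone H4 ahead of chromatin assembly, and the comparison asks how its loss alters transcription. The lines were derived from mid-gestation embryos after the internal organs had been taken out, and were grown in serum-containing medium without any further treatment. Each line contributed 1 library, so p-values given for other genes set the difference between genotypes against the spread between these lines.

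In meiosis, cohesin rings containing Smc1b and Stag3 hold sister chromatids along a protein axis built with Sycp2, Sycp3 and Hormad1, and Sycp1 zips the paired axes into the synaptonemal complex. Tex15 and Mael act in the silencing of transposons in male germ cells, where Tex15 works with the piRNA pathway. Ddx4 (Vasa) is an RNA helicase of germ granules and Dazl an RNA-binding protein that controls germ cell translation. In somatic cells many such genes carry methylated CpG-rich promoters or are bound by a noncanonical Polycomb complex, whose MGA and MAX subunits recognise the E-box and whose E2F6 subunit recognises E2F sites.

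The promoters are shown because several of them hold the motifs named above. RefSeq promoter windows (assembly GRCm38.p6, 250 bases before to 50 bases after each start) matched 9 of the 10 genes, all but Tex15. Hormad1 had a second annotated start close to the first, so the 9 genes had 10 windows. The palindromic E-box CACGTG lay in the windows of 6 of the 9 genes. By window, 7 of 10 (70.0%) held it, against 7.15% of all 32851 promoter windows and 10.9% of the 14281 windows with at least 10 CpG dinucleotides. The 6 genes and the distance from the first base of the E-box to the start were Mael (223 bases), Hormad1 (57 and 20 bases), Sycp1 (94 bases), Stag3 (170 bases), Sycp3 (64 and 43 bases) and Ddx4 (29 bases). From the other start of Hormad1 the distances were 59 and 22 bases. The sequences are read on the strand of the gene, 5′ to 3′, with the E-box in capitals and 10 bases on either side.
Mael, chr1:166238952-166238977, minus strand: ccaggcctacCACGTGacaatccccg
Hormad1, chr3:95559610-95559635, plus strand: aagggtgcgcCACGTGccagtgacag
Hormad1, chr3:95559647-95559672, plus strand: gcgcactgcgCACGTGctgaccggag
Sycp1, chr3:102936179-102936204, minus strand: gagaacccggCACGTGggaagggaaa
Stag3, chr5:138280329-138280354, plus strand: cgctggagccCACGTGacaggactgc
Sycp3, chr10:88459513-88459538, plus strand: cgttggctccCACGTGagaacgggca
Sycp3, chr10:88459534-88459559, plus strand: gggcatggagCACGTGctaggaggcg
Ddx4, chr13:112652324-112652349, minus strand: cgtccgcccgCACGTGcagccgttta

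The letters GCGGGAA, an E2F-type sequence, were searched on both strands and lay in the windows of 5 of the 9 genes, against 4.6% of all windows and 9.20% of those with at least 10 CpG. The 5 genes were Hormad1 (95 bases before the first start, 97 before the other), Stag3 (3 bases), Sycp3 (147 bases), Ddx4 (136 bases) and Smc1b (48 bases). In Stag3 and Smc1b the match was on the opposite strand and reads TTCCCGC. Hormad1, Stag3, Sycp3 and Ddx4 held both motifs, a combination found in 0.457% of all windows, 0.994% of those with at least 10 CpG and 6.94% of 72 windows of other germline genes. The E2F-type letters are in capitals here.
Hormad1, chr3:95559572-95559598, plus strand: gcagcttttgGCGGGAAtagtggtctg
Stag3, chr5:138280496-138280522, plus strand: atcccgtgccTTCCCGCgtttttttct
Sycp3, chr10:88459430-88459456, plus strand: ggaaggaacaGCGGGAAagtgctgctt
Ddx4, chr13:112652430-112652456, minus strand: cgtccatgggGCGGGAAgtcgcgcgcc
Smc1b, chr15:85131989-85132015, minus strand: aaagaatttcTTCCCGCgctttttttt

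No E-box letters overlapped E2F-type letters in any of these windows. Sycp2 and Dazl held neither motif. Among 72 windows of other germline genes from the lists described further on, 22.2% held the E-box and 20.8% the E2F-type letters. The windows held 38 CpG in Ddx4, 30 in Stag3, 29 in Smc1b, 28 in Dazl, 24 in Hormad1 and in Mael, 21 in Sycp1, 15 in Sycp3 and 10 in Sycp2, where the median of all windows was 7. Sycp2 lay at percentile 57.6 of all windows by this count, and its observed over expected CpG of 0.36 was below the median of 0.384. The other 8 lay between percentiles 66.2 (Sycp3) and 95.3 (Ddx4). Only these 2 motifs were searched, and a match describes the letters of the window, not a bound site.

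**Figure D1:**
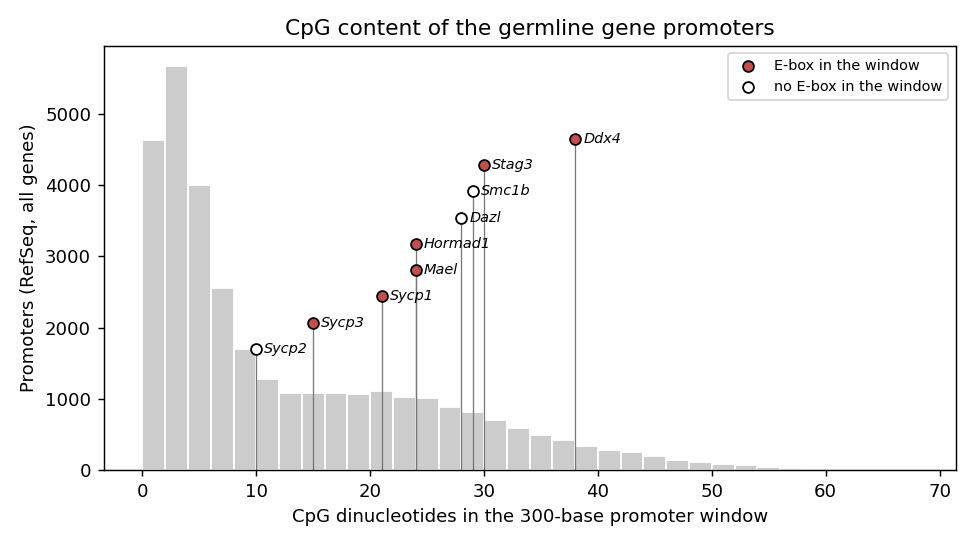
The x axis gives the number of CpG dinucleotides in each 300-base RefSeq promoter window and the y axis the number of windows, with all 32851 windows as grey bars. The 9 germline genes are marked at their own CpG count (marker height carries no value and is stepped for legibility), filled red where the window holds the E-box; all 9 lie at 10 CpG or above, and the median of all windows is 7.

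The 6 libraries held 67720628 to 98786746 counts in genes, and a count of 3, the most that an observed 0 allows, corresponded to 0.0303 to 0.0444 CPM, the usual unit for counts scaled by TMM-adjusted library size. Hat1 itself was at 17.4 to 23.0 CPM in HAT1 WT and 10.0 to 10.3 CPM in HAT1 KO (log2 fold change -0.99 ± 0.12 SE, edgeR quasi-likelihood test, Benjamini-Hochberg adjusted p = 0.0376). Fibroblast markers were abundant in all lines, with 57600 to 89700 CPM summed over 9 genes. Macrophage markers were present and lower in HAT1 KO, at 4290 to 4650 CPM against 2050 to 2540 CPM summed over 7 genes, of which 6 passed the adjusted test. Y-linked counts were 13788, 12841 and 231 in HAT1 WT lines 36, 47 and 78 and 4 to 8 in HAT1 KO. Xist counts were 94, 1179 and 29520 in the same HAT1 WT lines and 11233 to 13722 in HAT1 KO. Line 47 had both Y-linked and Xist counts, and line 78 had more Y-linked counts than any HAT1 KO line. With that limit, genotype and the sex of the embryos largely coincide. Line 72 of HAT1 KO stood apart, with 25 genes at least 10 times higher than in any other line, against 0 to 3 genes for each of the other lines.

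Markers of the cells that normally express these genes were scarce. Of the 8 primordial germ cell markers listed, 6 had a row (Prdm14 and Pou5f1 did not), and together they reached 1.24 to 1.62 CPM in HAT1 WT and 0.804 to 1.98 CPM in HAT1 KO. Tfap2c was at 0 in 3 lines and at most 0.0449 CPM, and 4 of the 6 also stand in the list of germ cell regulators used further on. Of 10 markers of gonadal somatic cells, Nr5a1 and Hsd3b1 had no row, and the other 8 summed to between 3.0 and 5.20 CPM in HAT1 WT and 2.63 to 3.89 CPM in HAT1 KO. Endothelial markers summed to 11.2 to 12.5 CPM in HAT1 WT and 8.87 to 12.3 CPM in HAT1 KO, and none of the fibroblast, germ cell, gonadal or endothelial markers tested passed an adjusted p of 0.05 in edgeR or DESeq2, while Thy1, Star, Pecam1 and Cdh5 had an unadjusted p under 0.05. In bulk RNA, fewer cells of a type and less RNA per cell cannot be told apart.

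The germline genes were measured at low levels in all lines. Of the 8 genes, 7 had a mean below 1 CPM over the 6 lines, against 29.5% of all genes in the table. Tex15 was the exception, with 4.97 CPM. Of the counts behind these levels 3 were 0, and 32 of the 45 others were even numbers. Among all genes, 75.1% of counts from 1 to 10 were even. How reads of a pair were counted is not given in the sources used here, and the number of independent fragments behind a low count may be smaller than the count.

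To compare the genes with one another, CPM was divided by the length of each gene's exons (GENCODE M21, GRCm38), giving CPM per kilobase. On this scale the median over the 6 lines was highest for Tex15 (0.454), followed by Stag3 (0.140), Sycp3 (0.0821), Smc1b (0.0442), Ddx4 (0.0432), Sycp1 (0.0327), Sycp2 (0.0263) and Dazl (0.00612). The lowest line of Tex15 (0.330) lay above the highest line of Stag3 (0.282), whereas every later pair of neighbours in this order overlapped between lines. By mean level per kilobase the order differed, because single high lines raise a mean. Tex15 stood at percentile 31.2 of all genes with a row, Ddx4 at 25.9, Stag3 at 21.5, Sycp1 at 18.0 and Sycp3 at 16.0. Smc1b stood at 12.4, Sycp2 at 7.53 and Dazl at 2.15. Ddx4 in HAT1 KO line 72 (1.44) lay above the highest line of Tex15 (0.790). Tex15 alone made up 48.4% to 85.0% of the summed CPM of the 8 genes in each line.

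**Figure D2:**
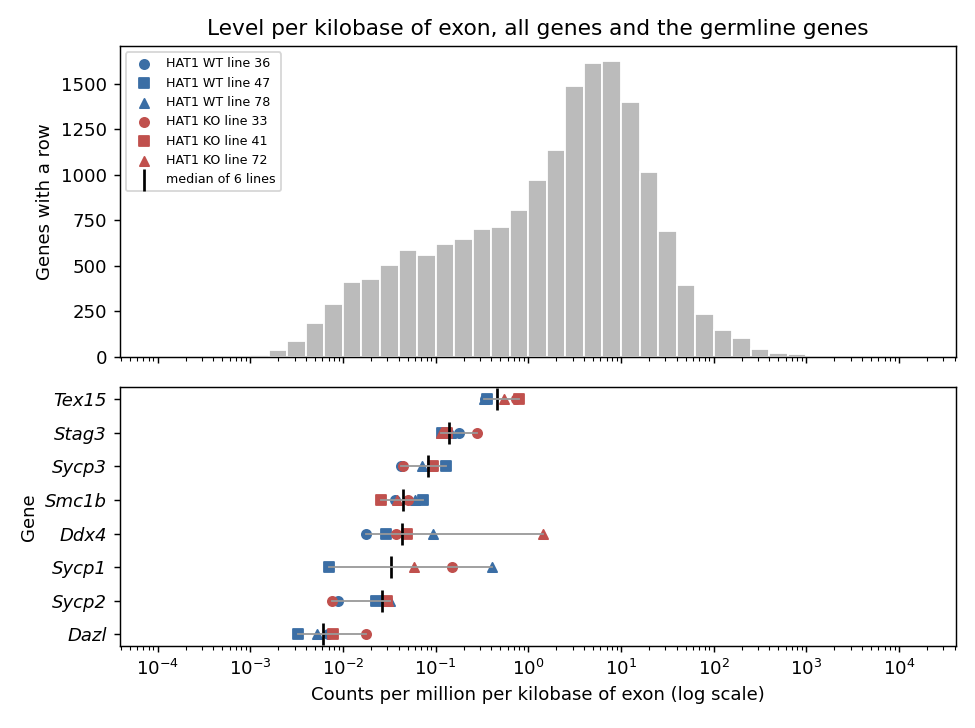
The upper panel counts all 17512 genes by mean level and the lower panel gives the 8 germline genes, both on a log x axis of CPM per kilobase of exon. In the lower panel each point is a line (blue HAT1 WT, red HAT1 KO) and black ticks are medians of the 6 lines. Lines at 0 (Sycp1 in 2 lines, Dazl in 1) are not drawn. Only Tex15 keeps clear of the gene next to it, and Ddx4 in line 72 (1.44) lies above every line of Tex15.

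Tex15 (ENSMUSG00000009628, chr8:33516738-33585582, plus strand, GRCm38), the partner of the piRNA pathway in transposon methylation, was the 1 gene of the set with separate genotypes. HAT1 WT lines 36, 47 and 78 had 245, 276 and 314 counts, or 3.25, 3.43 and 3.17 CPM. HAT1 KO lines 33, 41 and 72 had 627, 514 and 410 counts, or 7.04, 7.60 and 5.31 CPM. Every HAT1 KO line was above every HAT1 WT line, and the HAT1 WT lines lay close together. Of all 14773 genes tested, 9.59% were separated in this direction and 12.4% in the other. The means were 3.28 ± 0.131 CPM in HAT1 WT and 6.65 ± 1.19 CPM in HAT1 KO (SD, n = 3 each), and the fitted difference was 1.02 ± 0.17 (SE) on the log2 scale.

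Since the genotypes did not overlap, the direction of the Tex15 difference is fixed in any subset of lines, and only its size is described here. With any 1 line left out the log2 fold change was between 0.92 and 1.17. Within sequencing lane 6 the HAT1 KO mean was 1.80 times the HAT1 WT value (6.18 CPM over 2 lines against 3.43 CPM in 1 line), and within lane 7 it was 2.40 times (7.60 against 3.17 CPM, 1 line each). Against line 78 alone, the HAT1 WT line with high Xist, the 3 HAT1 KO lines averaged 2.10 times higher. The genes on either side of Tex15 had smaller log2 fold changes, with Ppp2cb, 14043 bp away, at 57.2 to 67.8 CPM in HAT1 WT and 61.5 to 73.2 CPM in HAT1 KO (log2 fold change 0.06 ± 0.10 SE), and Purg, 99271 bp away, at a log2 fold change of -0.12 ± 0.13 (SE).

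Proliferation genes were also higher on average in HAT1 KO. Summed over 12 genes they were at 562, 833 and 600 CPM in HAT1 WT lines 36, 47 and 78 and at 1120, 959 and 781 CPM in HAT1 KO lines 33, 41 and 72. The ranges overlapped, with line 47 of HAT1 WT above line 72 of HAT1 KO. None of the 12 passed an adjusted p of 0.05 in edgeR, 8 had an unadjusted p under 0.05 (14.6% of all genes did), and 2 passed with DESeq2 (5.88% of all genes did). The part of proliferation, of the lower macrophage markers or of embryo sex in the Tex15 difference was not tested.

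**Figure D3:**
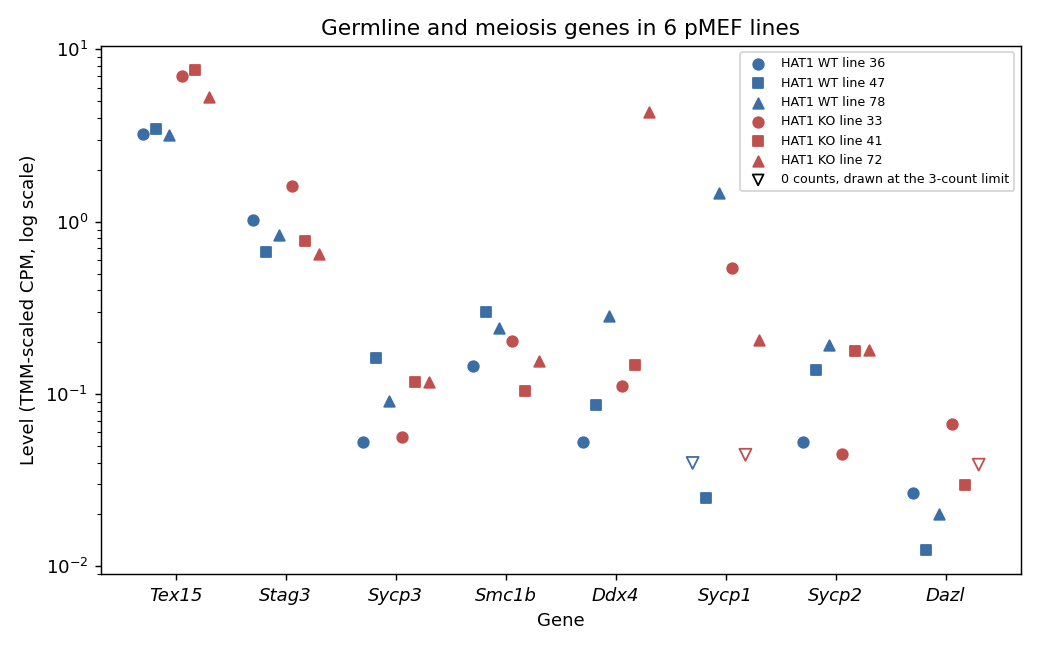
Level of each of the 8 germline genes in each pMEF line, as CPM on a log y axis, with HAT1 WT in blue and HAT1 KO in red and open triangles for counts of 0 drawn at the 3-count limit of that library. Tex15 is the gene in which the red points (5.31 to 7.60 CPM) all lie above the blue ones (3.17 to 3.43 CPM). Ddx4 shows 1 line far above the others (4.35 CPM in line 72). Sycp1 is highest in line 78 (1.46 CPM), followed by lines 33 and 72 (0.539 and 0.207 CPM).

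Of the synaptonemal complex genes, Sycp1 (ENSMUSG00000027855, chr3:102818499-102936100, minus strand), the transverse filament protein, varied most between lines. It had 0, 2 and 144 counts in HAT1 WT lines 36, 47 and 78 (0, 0.0248 and 1.46 CPM) and 48, 0 and 16 counts in HAT1 KO lines 33, 41 and 72 (0.539, 0 and 0.207 CPM). Line 78 of HAT1 WT was the highest and both genotypes contained a line at 0, where the 3-count limit is 0.0398 CPM for line 36 and 0.0444 CPM for line 41. The means were 0.493 ± 0.833 CPM in HAT1 WT and 0.249 ± 0.272 CPM in HAT1 KO (SD, n = 3 each). The fitted log2 fold change was -0.98 ± 1.84 (SE) with all lines and 4.16 without line 78, so its sign rested on 1 library. Line 78 was 2.70 times the next line, a lead that 1.63% of the 14773 genes tested reached in some line.

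The axis genes Sycp2 and Sycp3, which form the lateral elements, had few counts. Sycp2 (ENSMUSG00000060445, chr2:178345293-178407685, minus strand) had 4, 11 and 19 counts in HAT1 WT and 4, 12 and 14 counts in HAT1 KO, in the same order of lines. These were 0.0530, 0.137 and 0.192 CPM against 0.0449, 0.177 and 0.181 CPM, and the genotypes overlapped almost fully (log2 fold change 0.04 ± 0.70 SE, from -0.30 to 0.48 with a line left out). Sycp3 (ENSMUSG00000020059, chr10:88459569-88473236, plus strand) had 4, 13 and 9 counts in HAT1 WT and 5, 8 and 9 counts in HAT1 KO, and did not pass the filter on low counts. Sycp3 is uncertain in a further way, since 660 of its 1264 exon bases are shared with Chpt1 on the opposite strand, a gene at 28.5 ± 3.33 CPM in HAT1 WT and 30.8 ± 4.67 CPM in HAT1 KO (SD, n = 3 each), and the library kit did not mark strand.

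The meiotic cohesin subunits Stag3 and Smc1b were detected in every line. Stag3 (ENSMUSG00000036928, chr5:138280240-138312393, plus strand) had 78, 54 and 83 counts in HAT1 WT lines 36, 47 and 78 (1.03, 0.671 and 0.839 CPM) and 144, 52 and 50 counts in HAT1 KO lines 33, 41 and 72 (1.62, 0.769 and 0.648 CPM). Line 33 of HAT1 KO was the highest and the other HAT1 KO lines lay within or just below the range of HAT1 WT. The log2 fold change of 0.26 ± 0.42 (SE) became -0.26 without line 33. Smc1b (ENSMUSG00000022432, chr15:85064689-85131964, minus strand) had 11, 24 and 24 counts in HAT1 WT (0.146, 0.298 and 0.243 CPM) and 18, 7 and 12 counts in HAT1 KO (0.202, 0.104 and 0.156 CPM). Its genotypes overlapped, with a log2 fold change of -0.56 ± 0.44 (SE) that was negative with each line left out (-0.81 to -0.33).

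The mitotic paralogues of these subunits were far more abundant. By mean CPM per kilobase Smc1a was 245 times Smc1b, Stag1 was 41.4 times Stag3 and Stag2 was 94.5 times Stag3. None of the paralogues passed the adjusted test between genotypes, with log2 fold changes of -0.04 ± 0.07 (SE) for Smc1a, 0.01 ± 0.10 for Stag1 and -0.14 ± 0.07 for Stag2 (edgeR, adjusted p = 0.813, 0.982 and 0.402). Gpc2, which starts 235 bp from Stag3, was at 0.239 to 0.434 CPM in HAT1 WT and 0.168 to 0.311 CPM in HAT1 KO, and Ribc2, 114 bp from Smc1b, was at most 0.0808 CPM in any line.

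Ddx4 (ENSMUSG00000021758, chr13:112598333-112652475, minus strand), the germ granule helicase, was high in a single line. It had 4, 7 and 28 counts in HAT1 WT lines 36, 47 and 78 (0.0530, 0.0869 and 0.283 CPM) and 10, 10 and 336 counts in HAT1 KO lines 33, 41 and 72 (0.112, 0.148 and 4.35 CPM). Lines 33 and 41 lay inside the range of HAT1 WT, and line 72 was 15.4 times the next highest line. A lead of that size occurred in 13 of the 14773 genes tested (0.088%), 12 of them led by line 72. The fitted log2 fold change was 3.40 ± 1.57 (SE) with all lines and -0.15 ± 0.80 (SE) without line 72.

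In line 72, Ddx4 made up 39.7% of the summed CPM of the 8 germline genes, against at most 4.49% in any other line. Other germ cell genes were mixed in this line. Dazl had 0 counts in line 72 but only 1 to 6 in the other lines, too few to set line 72 apart. Dppa3 was at 0.0648 CPM in line 72 (5 counts) against 0.248 to 0.414 CPM elsewhere (19 to 41 counts). The summed primordial germ cell markers were lowest in line 72 (0.804 CPM). Tdrd9, another germ granule helicase, was highest in line 72 (40 counts, 0.518 CPM against at most 0.0993 CPM elsewhere), as was Nanos3 (25 counts, 0.324 CPM against at most 0.174 CPM). The adjacent genes also differed from it, with Il31ra, 3973 bp away, highest in HAT1 WT line 78 (3.58 CPM, against 1.24 CPM in line 72) and Slc38a9, 8276 bp away, at 9.61 to 14.8 CPM across the lines. The 25 genes led at least 10-fold by line 72, looked up after their values were seen, included the distal limb genes Hoxa13 (31.9 CPM against at most 1.02 CPM elsewhere), Hoxd13 (102 against at most 5.34 CPM) and Msx1 (88.1 against at most 2.88 CPM) and the joint lubricant gene Prg4 (80.0 against at most 3.37 CPM). Ddx4 ranked 12 among these 25 genes by the size of its lead.

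Dazl (ENSMUSG00000010592, chr17:50279395-50293636, minus strand) was the lowest of the 8 genes, with 2, 1 and 2 counts in HAT1 WT and 6, 2 and 0 counts in HAT1 KO. All but 1 of these counts were at or under the 3-count limit, so no difference between genotypes was detectable at this depth.

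**Figure D4:**
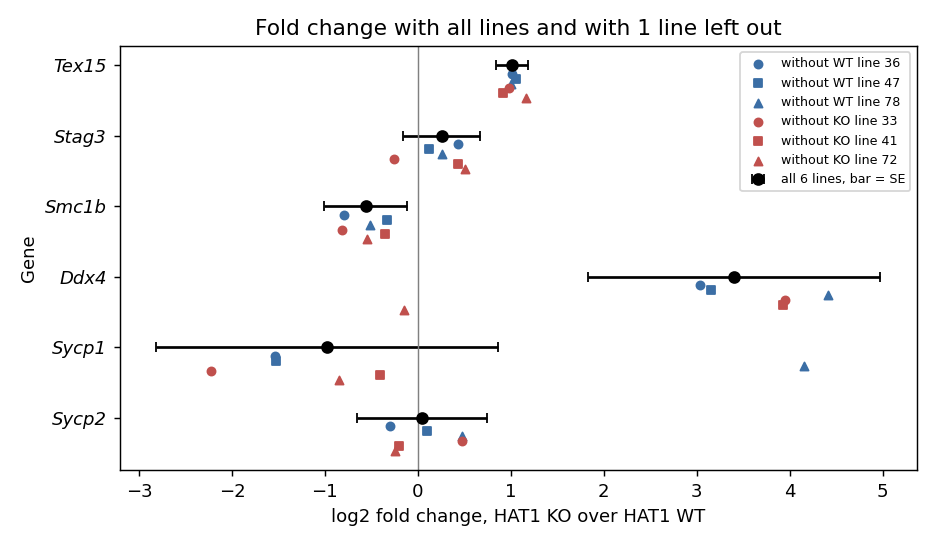
The x axis gives the log2 fold change of HAT1 KO over HAT1 WT for the 6 germline genes that passed the filter, with all lines (black, bar = SE) and with each line left out (blue, a HAT1 WT line left out; red, a HAT1 KO line left out). Tex15 stays between 0.92 and 1.17, Ddx4 falls to -0.15 without line 72 and Sycp1 moves to 4.16 without line 78.

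Of the 8 genes, 6 passed the filter on low counts, all but Sycp3 and Dazl. None of the 6 passed an adjusted p of 0.05 in edgeR, where 0.528% of the 14773 genes tested did so, 1 had an unadjusted p under 0.05 (14.6% of all genes), and 1 passed the adjusted threshold with DESeq2 (5.88% of all genes). At 1.5-fold with an unadjusted p under 0.05, 1 of the 6 (Tex15) was higher in HAT1 KO, against 1.5% of all genes, and 0 were lower, against 4.62%. All HAT1 KO lines were above all HAT1 WT lines in 1 of the 6 (Tex15), against 9.59% of all genes, and below in 0 of the 6, against 12.4%. Nothing is read from these counts, because the set was selected with this contrast known. Over the 14773 genes the median log2 fold change was 0.0085.

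The genes whose pattern over the 6 lines was most like that of each germline gene were found by Pearson's r of log2(CPM + 0.1), as a description over 6 libraries that share depth and genotype. Tex15 was most like Dph3 (r = 0.992), Tmem263 (0.988) and Slc35b1 (0.987), each higher in all HAT1 KO lines but by much less, with Dph3 at 14.5 to 15.3 CPM in HAT1 WT and 17.4 to 19.3 CPM in HAT1 KO. Sycp1 was most like Bcl2a1a (0.998), Serpina3n (0.996) and Gm16299 (0.993). Serpina3n, an acute-phase protease inhibitor, repeated the order of lines, with 7.95, 8.90 and 83.4 CPM in HAT1 WT lines 36, 47 and 78 and 48.3, 7.80 and 21.4 CPM in HAT1 KO lines 33, 41 and 72.

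Ddx4 was most like Erc1 (r = 0.998), Epb41l3 (0.995) and Cachd1 (0.994), each highest in line 72 but by much less than Ddx4. These values of r rest largely on line 72, where Ddx4 was 15.4 times the next highest line. Erc1 was at 114 CPM in line 72 against 96.0 to 100 CPM elsewhere, and Epb41l3 at 307 against 187 to 212 CPM. Cachd1 was at 97.9 against 52.6 to 65.2 CPM. Sycp2 was most like Sfxn4 (0.992), Tac1 (0.988) and Bbs7 (0.980). Stag3 was most like A330033J07Rik (0.989), Cyp1b1 (0.977) and Dmap1 (0.976), and Smc1b was most like Mthfsd (0.969), C230035I16Rik (0.963) and Zfp772 (0.961). The search ran over all 14773 genes tested other than the set itself, so high values of r over 6 libraries are partly a result of that selection.

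Other genes of the same pathways were listed as 73 genes in 6 lists. Of these 47 had a row, 36 of the 47 (76.6%) were below 1 CPM on average, and 28 were tested. None of the 28 passed an adjusted p of 0.05 in edgeR, 5 had an unadjusted p under 0.05 (17.9%, against 14.6% of all genes), and 4 passed the adjusted threshold with DESeq2 (14.3%, against 5.88%). At the 1.5-fold rule 2 of 28 were higher (7.14%, against 1.5% of all genes) and 3 were lower (10.7%, against 4.62%). All the lists were chosen with earlier results of these data known, so nothing is read from such shares. Their log2 fold change was above 0 in 12 of 28, against 51.5% of all genes, with a median of -0.11.

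The 2 higher genes were Sgo2a, which protects centromeric cohesin, and Trip13, an ATPase that remodels HORMA-domain proteins in meiosis and at the mitotic checkpoint. Sgo2a was at 4.80 ± 1.12 CPM in HAT1 WT and 7.77 ± 0.531 CPM in HAT1 KO (log2 fold change 0.69 ± 0.19 SE, edgeR adjusted p = 0.197). Trip13 was at 8.50 ± 2.10 and 15.0 ± 2.80 CPM (0.82 ± 0.22 SE, adjusted p = 0.191). Both are also made by dividing cells, whose marker sums are given beside Tex15. Of the 12 proliferation genes 7 were higher at the same 1.5-fold rule (1.5% of all genes were), with a median log2 fold change of 0.69 over the 12. The part of proliferation in the Sgo2a and Trip13 differences was not tested.

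The 3 lower genes belonged to recombination and to the piRNA pathway. Mei4, needed for meiotic double-strand breaks, was at 2.60 ± 0.377 CPM in HAT1 WT and 0.836 ± 0.471 CPM in HAT1 KO (log2 fold change -1.64 ± 0.47 SE, adjusted p = 0.212). Tdrd1, a Tudor-domain protein that binds Piwi proteins, was at 0.552 ± 0.0293 and 0.128 ± 0.0812 CPM (-2.08 ± 0.51 SE, adjusted p = 0.165). Gpat2, which takes part in piRNA production, was at 0.477 ± 0.219 and 0.205 ± 0.0466 CPM (-1.21 ± 0.47 SE, adjusted p = 0.320) and overlapped between genotypes. For Mei4 and Tdrd1 every HAT1 KO line was below every HAT1 WT line, as in 12.4% of all genes tested. Among the other genes tested in these lists, Piwil2 and Tdrd7 were also lower in every HAT1 KO line. For Sgo2a and Trip13 every HAT1 KO line was above every HAT1 WT line, the direction of Tex15, as in 9.59% of all genes tested.

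By list, the median log2 fold change was 0.20 for other axis and synaptonemal complex genes (2 tested), 0.46 for cohesin and kinetochore genes (2 tested), -0.13 for recombination and telomere attachment genes (10 tested), -0.41 for piRNA genes (7 tested), -0.05 for germ cell regulators (5 tested) and 0.10 for testis genes (2 tested). Several listed genes are also transcribed outside the germline, and these had the highest levels. They were the granule protein gene Tdrd7 (31.1 ± 0.684 CPM in HAT1 WT, 28.9 ± 0.144 CPM in HAT1 KO), the mismatch repair gene Mlh3 (21.2 ± 1.62 and 19.1 ± 1.36 CPM) and the RNA helicase gene Ythdc2 (20.1 ± 1.95 and 22.2 ± 2.47 CPM).

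**Figure D5:**
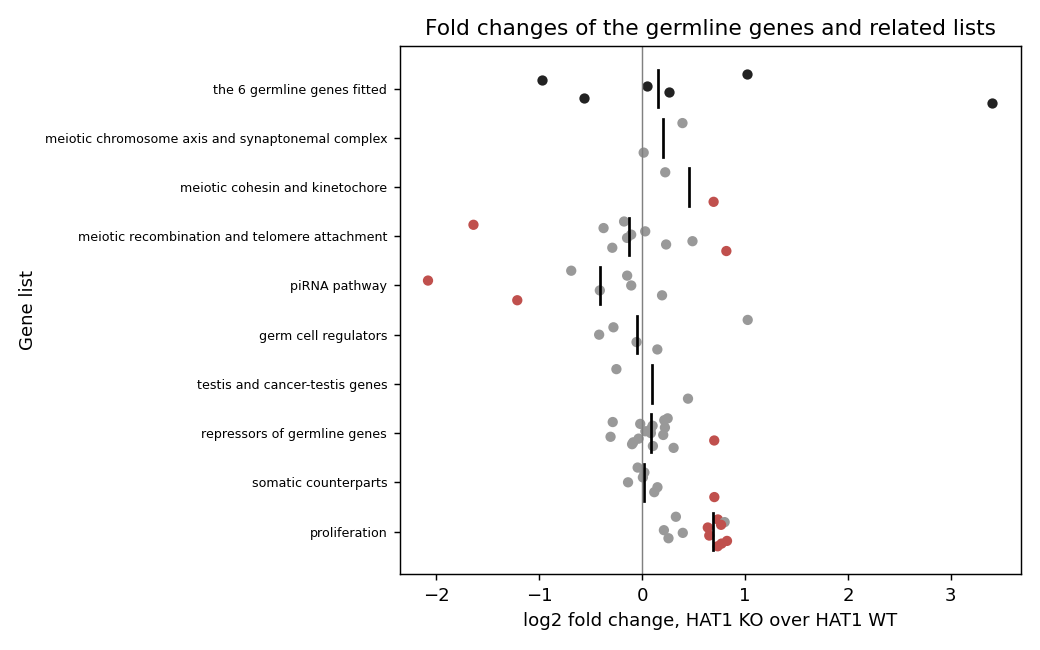
Log2 fold change of HAT1 KO over HAT1 WT (x axis) for each tested gene of each list (rows), with the list median as a black bar; black points are the 6 germline genes fitted, and red points are genes of the other lists past 1.5-fold with an unadjusted p under 0.05. The 5 red points in the germline lists are 2 higher and 3 lower, and the proliferation list has 7 of 12, all higher. Of all genes tested, 1.5% were higher and 4.62% lower at this rule.

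The repressors known to keep such genes off were all detected. All 17 listed had a row and were tested, none passed an adjusted p of 0.05 in edgeR, 1 did with DESeq2 (5.88% of all genes did), 2 had an unadjusted p under 0.05 (14.6% of all genes did), and the median log2 fold change was 0.08. Uhrf1, which brings the maintenance DNA methyltransferase to replicating DNA, was the 1 gene past the 1.5-fold rule. It was at 51.1 ± 12.7 CPM in HAT1 WT and 83.0 ± 8.98 CPM in HAT1 KO (log2 fold change 0.70 ± 0.18 SE, edgeR adjusted p = 0.187). The proliferation genes went in the same direction, and their part in the Uhrf1 difference was not tested. Mga, the scaffold of the noncanonical Polycomb complex, was at 151 ± 18.2 and 124 ± 3.96 CPM (-0.29 ± 0.10 SE, adjusted p = 0.269). The X-linked demethylase gene Kdm5c was at 178 CPM in HAT1 WT lines 36 and 47 and at 266 CPM in line 78, within the 248 to 270 CPM of the HAT1 KO lines, and so followed Xist.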

How the data were processed

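RNA was extracted from 6 pMEF lines and libraries were made with the TruSeq RNA kit (v2), which does not mark strand. The authors deposited 1 table of raw counts per gene, and the submitters' processing notes name edgeR and the build mm10. The aligner, the counter and its annotation are not given in the sources used here. The same deposited table holds the authors' own comparison, with log2 fold changes and log2 mean CPM, an F score, p-values and q-values, none of which was used. All 17512 rows matched GENCODE M21 by gene identifier, and 24 symbols turned into dates were restored.

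Counts were tested with edgeR 4.0.16 (filterByExpr with a minimum count of 10, TMM scaling, quasi-likelihood fit on genotype, two-sided, Benjamini-Hochberg over 14773 genes) in R 4.3.3. DESeq2 1.42.0 was an alternative. SE is the log2 fold change over the root of F. On simulated counts 88.7% of genes changed by 2 log2 units and 48.2% of those changed by 1 were recovered over 14575 genes. The changed genes were drawn at random from all genes tested, so these shares do not describe genes as low or as variable as the germline set. The germline genes and all lists were chosen with earlier results of these data known. Named genes were the set, Hat1, list genes past a threshold or among the 3 most abundant of a list, the somatic counterparts, the genes most alike and marker genes beside a result. The 3-count limits cover counting error only, while SDs and SEs include the spread between lines. A result on 1 further listed gene is not reported here.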

Additional observations from a re-analysis of the deposited data

How the results depend on the processing

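The alternatives were another scaling, DESeq2, no filter, lane as a term, counts halved and each line left out. Over 68 alternative log2 fold changes of the germline genes, 66 stayed within the margin set for a move, labelled 1 SD, and 2 moved further. In Stag3 that margin was wider than the SE, since the value without HAT1 KO line 33 counted as within it (0.26 ± 0.42 SE with all lines, -0.26 without). The sign changed in 7, of which 4 were in Sycp2 (-0.21 with lane as a term, and -0.30, -0.21 and -0.25 without HAT1 WT line 36 and HAT1 KO lines 41 and 72). The others were Sycp1 without HAT1 WT line 78 (4.16), Stag3 without HAT1 KO line 33 (-0.26) and Ddx4 without HAT1 KO line 72 (-0.15). With counts halved 2 of the set passed the filter.

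Over all genes, 78 passed an adjusted p of 0.05. The DESeq2 Wald test gave 869 (222 higher), no filter 46 and lane as a term 2, and leaving out 1 line gave 0 to 73, where the fits with 0 had 1439 to 1859 genes at an unadjusted p under 0.05. At 1.5-fold 903 genes passed, 529 with lane as a term and 688 to 1090 with 1 line left out. The germline lists, repressors, somatic counterparts and proliferation genes together held 14 genes at that rule (11 higher, 3 lower). Of the 11 higher genes, 7 were proliferation genes, 1 was a repressor and 1 a somatic counterpart. The germline lists alone held 2 higher and 3 lower genes of 28 tested, against 1.5% and 4.62% of all genes. The pooled 14 became 5 with lane as a term (2 higher, 3 lower) and 7 to 16 with 1 line left out. The division of these later numbers between lists is not given here. The lane term spends a coefficient on HAT1 WT line 36, alone in lane 8, and the cause of the other changes was not tested. No paired analysis was possible because the genotypes share no replicate numbers. Depth limited Dazl, Sycp3 and Sycp2, whose libraries held 0 to 19 counts each.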
